A study of Arabidopsis thaliana with 12 samples.

Results

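The NAC genes of Arabidopsis thaliana were examined for peaks of MAC3A, a subunit of the MOS4-associated complex, mapped on chromatin by ChIP-seq in whole seedlings. A gene was taken as a member when it was a protein-coding nuclear gene whose symbol in the TAIR10 gene table is NAC followed by a number, which held for 79 of 27444 protein-coding nuclear genes. This rule uses the symbol alone and no measured value. It was set with earlier results of these data known, as were the role groups used below. Of 12 samples, 6 were MAC3A libraries with a peak list each, 3 titled blue light and 3 titled dark. The other 6 were controls, 3 per condition, and their own signal was not analysed here. All samples carry the genotype Columbia-4. The growth notes describe seedlings of 6 days from lines that express MAC3A-GFP, with lines that express GFP alone as the control. The titles call the 6 controls input, so the labels conflict on what the controls were. The sources used here name neither the transgene's promoter nor the number of lines. The notes name blue light for every sample and the antibody is given as anti-FLAG, so the titles alone give each library its condition. The submitters' code of dark replicate 3 carries the mark of replicate 2, while the lists of these replicates differ in length.

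NAC proteins are plant transcription factors. They bind DNA through a conserved domain near their start and act through a variable tail, which in some members holds a membrane anchor that keeps the protein out of the nucleus until it is cut. Members are known for leaf senescence, drought and abscisic acid responses, for organ boundaries and for the walls of water-conducting cells. A few of them, among them CUC1, CUC2, NAC1, NAC092 (ORE1), NAC080 and NAC100, are cut by the microRNA miR164. The symbol NAC3 stands for both AT3G15500 and AT3G29035 in the table, and NAC2 for both AT3G15510 and AT5G04410, so these genes are called here NAC055, NAC059, NAC056 and NAC078, and AT5G39610 is called NAC092, from their listed synonyms.

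MAC3A summits lay at 12 of the 79 NAC genes in at least 1 library, in the body or within 1 kb of either end, and at the other 67 in none. Of all protein-coding genes 13.7% met the same rule. The peaks of highest fold among the members sat inside NAC080 and NAC094 and were found in every library. NAC080, NAC083, NAC094 and NAC100 had a body summit in each of the 6 libraries. These 4 genes are 5.06% of the members, beside 1.59% of all protein-coding genes with a body summit in all 6 libraries and 2.70% with a summit in the body or within 1 kb. Among WRKY and MYB genes, compared below, 5.97% and 4.35% had a body summit in all 6. A further 3 members, NAC052, NAC053 and NAC055, had summits in the 3 blue libraries and in none of the dark ones. They are 3.8% of the members, beside 1.14% of all protein-coding genes with that pattern. No member showed the opposite pattern, which 0.401% of all protein-coding genes showed. The fold enrichment quoted below belongs to each peak and was computed by the authors' caller as a ratio over the local background. It depends on the depth of its list and serves to describe and rank peaks within a list.

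**Figure D1:**
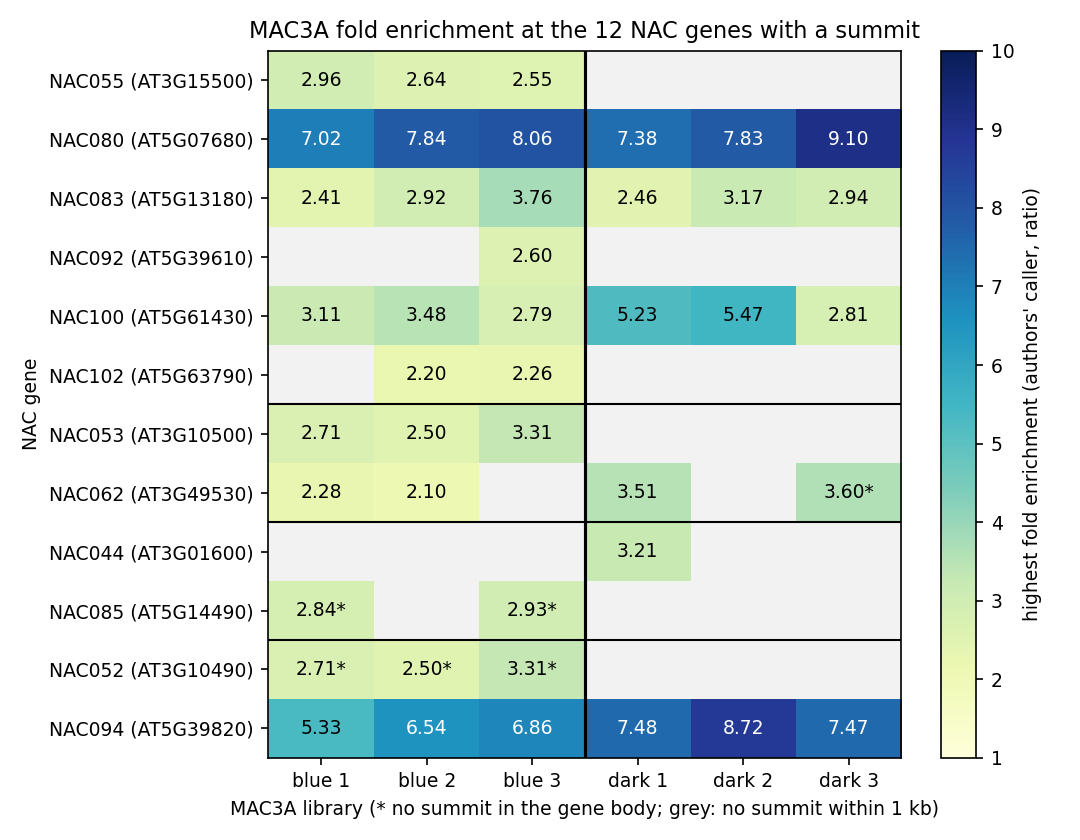
Highest fold enrichment (ratio, colour and number) of MAC3A summits at the 12 NAC genes with a summit, by gene (rows, ordered by role with lines between the role groups) and library (columns, 3 blue and then 3 dark). NAC080 had folds of 7.02 to 9.10 in all libraries, while NAC052, NAC053, NAC055, NAC085, NAC092 and NAC102 have values in blue libraries alone. An asterisk marks a library with no summit in the gene body, and grey marks no summit within 1 kb. The unmarked 2.28 of NAC062 in blue replicate 1 belongs to a summit beside the gene.

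Among the members known from stress hormones and senescence, 5 of 17 were bound in blue light and 3 in the dark, bound meaning a summit in at least 2 of the 3 libraries of a condition. Over all members 10 of 79 (12.7%) were bound in blue light, where 7.37% of all protein-coding genes were, and 5 of 79 (6.33%) in the dark, where 5.62% were. All 5 dark members were also bound in blue light, a pattern of both conditions that 4.16% of all protein-coding genes had. With this window the dark share was thus near the background and the blue share above it, with no test of either. With body summits alone the dark share was also above it, at 5.06% beside 3.14%.

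NAC080 (AT5G07680), a miR164 target known from hypersensitive cell death, carried the peak with the best rank by −log10 q among the members in every library. Its highest fold was 7.02, 7.84 and 8.06 in the blue libraries and 7.38, 7.83 and 9.10 in the dark libraries. The values of the conditions overlapped. By −log10 q its peak ranked 55, 42 and 40 in blue lists of 1505, 1820 and 1578 peaks, and 64, 65 and 45 in dark lists of 1285, 1225 and 1169 peaks. The peaks lay on chromosome 5 between 2435872 and 2437241 (TAIR10, counted from 1) and covered 59.3%, 62.8% and 73.4% of the gene body in blue light and 54.7%, 41.2% and 65.4% in the dark. The strongest summit of each library fell in the middle of the gene, between 47.1% and 49.9% of its length, within 52 bp over the 6 libraries. Dark replicate 3 had an added weaker summit with a fold of 3.03.

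NAC100 (AT5G61430), a relative of NAC080 that is also targeted by miR164, was bound in both conditions at lower folds. They were 3.11, 3.48 and 2.79 in blue light and 5.23, 5.47 and 2.81 in the dark. Dark replicates 1 and 2 were above all blue libraries, while dark replicate 3 was within the blue range. The peaks lay on chromosome 5 between 24701420 and 24702157, with the strongest summits from 33.5% to 47.7% along the gene from its end of lower coordinate. The gene table gives no strand, so which end is the start of transcription was not read.

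NAC083 (AT5G13180), also known as VNI2, interacts with the vascular regulator VND7 and is known from leaf longevity. Its folds were 2.41, 2.92 and 3.76 in blue light and 2.46, 3.17 and 2.94 in the dark, and the conditions overlapped. In contrast to NAC080 its strongest body summit changed place between libraries, from 22.7% to 92.5% of the gene's length, a range of 1176 bp. It lay between 22.7% and 30.7% in replicates 2 and 3 of both conditions. In dark replicate 1 it lay at 75.8% and in blue replicate 1 at 92.5%. The blue libraries and dark replicate 2 had weaker body summits at the other part of the gene. Blue replicate 3 had summits at 4 places in the body, and its peaks covered 76.2% of the gene, against 29.6% and 29.1% in the other blue libraries and 29.0%, 44.4% and 20.9% in the dark. The peaks lay on chromosome 5 between 4196424 and 4198167, with the RNA gene AT5G00390 within 1 kb of a summit in every library. The protein-coding gene AT5G13181 was within 1 kb of a summit in each blue library.

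NAC055 (AT3G15500), a regulator in jasmonate and abscisic acid responses, had body summits with folds of 2.96, 2.64 and 2.55 in blue light, and no dark library had one. The peaks lay on chromosome 3 between 5234395 and 5235200, with no other gene within 1 kb of a summit. Their −log10 q was 4.51, 3.39 and 2.54, where the lowest value in any list was near 2. The related genes NAC019 and RD26 had no summit in any library. NAC102 (AT5G63790), of the ATAF group and known from low-oxygen responses, had a body summit in blue replicates 2 and 3, with folds of 2.20 and 2.26, and none in blue replicate 1 or the dark. In the same group ATAF2 (AT5G08790) had folds of 2.16 and 2.82 in blue replicates 2 and 3, and ATAF1 (AT1G01720) a fold of 1.95 in blue replicate 1, with no summit of either in the dark. NAC032, the remaining gene of that group, had none. NAC092 (AT5G39610), the senescence regulator ORE1, had a summit in blue replicate 3 alone, with a fold of 2.60.

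Membrane-tethered members reach the nucleus once their anchor is cut, and 2 of 10 were bound in blue light and 1 in the dark, where 7.37% and 5.62% of all protein-coding genes were. NAC053 (AT3G10500), known from drought-induced senescence and from the response to proteasome stress, had body summits with folds of 2.71, 2.50 and 3.31 in blue light and none in the dark. They lay from 3.41% to 6.96% along the gene, at the end next to NAC052 (AT3G10490). The peaks, on chromosome 3 between 3271222 and 3271568, were also the ones counted for NAC052, which acts with a histone demethylase in gene repression and has no body summit of its own. These 2 members therefore stand on 1 set of peaks. NAC062 (AT3G49530), known from cold and from protein-folding stress, was bound in both conditions, with folds of 2.28 and 2.10 in blue replicates 1 and 2 and 3.51 and 3.60 in dark replicates 1 and 3. Blue replicate 3 and dark replicate 2 had no summit there. In dark replicate 3 the summit lay just outside the gene, 18 bp beyond its end. The fold of 2.28 in blue replicate 1 also belonged to a summit outside it, 72 bp beyond the end, and the body summit there had a fold of 2.01. In addition the gene AT3G49540 was within 1 kb of summits in all 4 libraries.

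The genes of DNA damage and proteostasis had weak or single peaks, with 1 of 4 bound in blue light and 0 in the dark, beside the same 7.37% and 5.62%. NAC085 (AT5G14490), which acts in cell cycle arrest after DNA damage, had summits 118 bp and 169 bp beyond its end in blue replicates 1 and 3, with folds of 2.84 and 2.93, and none elsewhere. The tRNA gene AT5G14495 was within 1 kb of both. Its close relative NAC044 (AT3G01600) had a body summit in dark replicate 1 alone, with a fold of 3.21. NAC082 and NAC103 had no summit.

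NAC094 (AT5G39820), a member with no role listed here, came next by that rank in every library. By fold it was above NAC080 in dark replicates 1 and 2. Its folds were 5.33, 6.54 and 6.86 in blue light and 7.48, 8.72 and 7.47 in the dark, so each blue value was below each dark one. The median fold of the whole lists was likewise lower in blue light, at 2.85, 2.78 and 2.80, than in the dark, at 3.33, 3.35 and 3.37, and the part of depth in the gene's folds was not tested. By rank the conditions overlapped, with places 112, 79 and 73 in the blue lists and 115, 81 and 90 in the dark lists. The 6 summits fell within 36 bp of each other, from 24.8% to 27.3% along the gene, in peaks on chromosome 5 between 15939190 and 15939952.

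**Figure D2:**
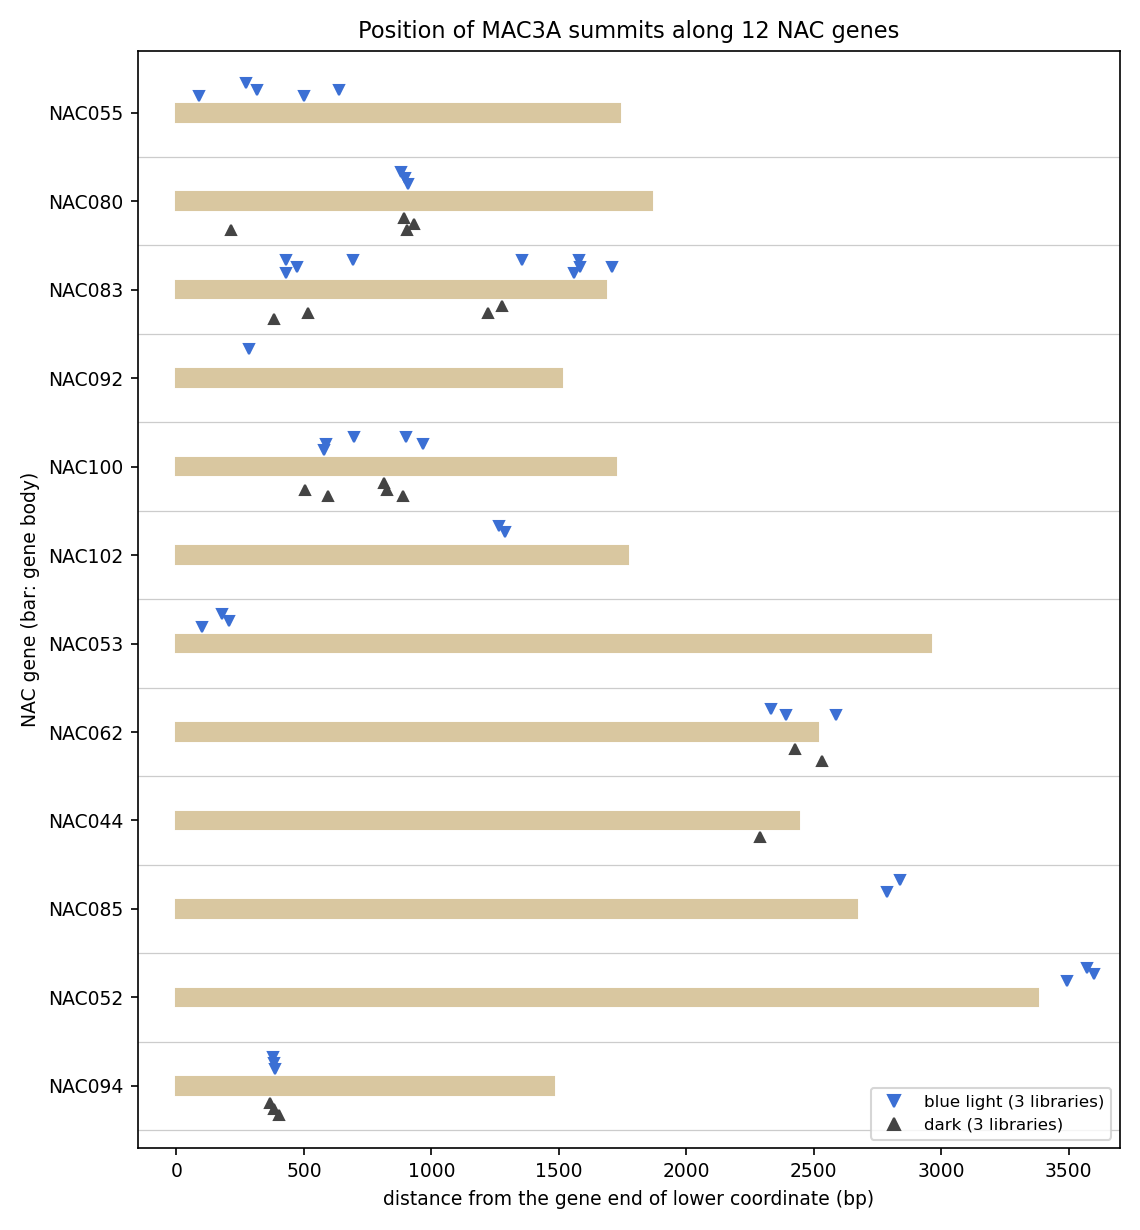
Position of each MAC3A summit (x axis, bp from the gene end of lower coordinate) along the 12 NAC genes with a summit (bars to scale, 1 per row). Downward blue triangles above a bar are blue-light summits and upward dark triangles below it are dark summits, each level of triangles being 1 replicate. NAC080 and NAC094 have their strongest summits within 52 bp and 36 bp over the 6 libraries. Those of NAC083 lie at separate parts of the gene, up to 1176 bp apart.

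No member grouped under vascular tissue and secondary walls had a summit, with 0 of 13. They include the master regulators NAC012 (SND1), NAC101 (VND6) and NAC066 (NST2). The same held for 0 of 6 members known from boundaries, roots and organs, among them NAC1 and the root cap genes NAC015 and NAC070. Of the 29 members with no role listed, NAC052 and NAC094 had summits and 27 did not. Since 13.7% of protein-coding genes had a summit in any library, empty groups of this size are no result about those roles.

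The 58 summits counted at members were 55 distinct ones, since 3 were shared by NAC052 and NAC053, and 50 of the 58 lay in the body of the member. Body summits occurred in 10 members (12.7%), beside 7.51% of all protein-coding genes, and NAC052 and NAC085 had summits beside the gene alone. With body summits alone 8 members (10.1%) were bound in blue light and 4 (5.06%) in the dark, beside 3.72% and 3.14% of all protein-coding genes. The 10 bound members had a median gene length of 1820 bp, against 1921 bp for the other 69 members. All protein-coding genes had a median length of 2078 bp. Beyond 1 kb, NAC069 had summits 1147 to 1238 bp away in all 6 libraries, which lay in the body of the neighbouring gene NTM1, and those nearest to NAC027, 2930 to 2973 bp away in all 6, lay in the body of DAA1. NAC028 had summits 2726, 2759 and 2742 bp away in the 3 dark libraries and none within 3 kb in blue light, in the body of AT1G65900. NAC095 had summits 1531 and 1549 bp away in blue replicates 1 and 3, in no gene body, and none within 3 kb in the dark. Those nearest to NAC082 lay 2509 and 2482 bp away in blue replicates 1 and 3 and 2496 bp away in dark replicate 2, in AT5G09315.

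Blue-light libraries had summits at more NAC genes than dark libraries. The number was 9, 9 and 10 in blue light and 6, 4 and 5 in the dark, so the conditions did not overlap. The mean was 9.33 ± 0.577 in blue light and 5 ± 1 in the dark (SD, n = 3 each), a difference of 4.33 (two-sided exact permutation test, p = 0.10). With 3 libraries against 3 a p of 0.10 is the lowest possible, reached whenever the conditions do not overlap. Nothing in the labels says that the libraries came from separate cultures, so this p applies to these libraries alone. Body summits were found in 7, 8 and 8 members in blue light and in 6, 4 and 4 in the dark. They differed by 3 (exact permutation test, two-sided, p = 0.10). Over all protein-coding genes the body counts were 1041, 1246 and 1082 for the blue libraries and 979, 918 and 912 for the dark ones. These counts too were higher for each blue library than for any dark one. The blue lists were longer, with 2162 ± 201 protein-coding genes at a summit in blue light and 1650 ± 73.2 in the dark (SD, n = 3 each). Members made up 0.448%, 0.377% and 0.479% of those genes in the blue libraries and 0.349%, 0.241% and 0.318% in the dark libraries. The share differed by 0.132 percentage points (exact permutation test, two-sided, p = 0.10). The excess in number was not kept under a filter on fold and was small under a filter on q. With a fold filter, which kept summits with a fold of at least 3, the difference in number turned to -0.333 (exact permutation test, two-sided, p = 1), and with a q filter, which kept summits with a −log10 q of at least 5, it was 0.333 (exact permutation test, two-sided, p = 1). With the q filter the share differed by -0.0121 points (exact permutation test, two-sided, p = 0.9), and with the fold filter by 0.0501 points (exact permutation test, two-sided, p = 0.6). The fold filter also turned the order over all protein-coding genes, with 3.24% bound in blue light and 3.95% in the dark. Under the q filter these were 3.6% and 3.06%. The fold cut of 3 lay above the median fold of each blue list, at 2.78 to 2.85. It lay below that of each dark list, at 3.33 to 3.37, so it kept unlike parts of the lists. With lists of equal length the number differed by 2 (exact permutation test, two-sided, p = 0.4). The depth behind each list is unknown from the peak lists alone, and its part in the difference was not tested.

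**Figure D3:**
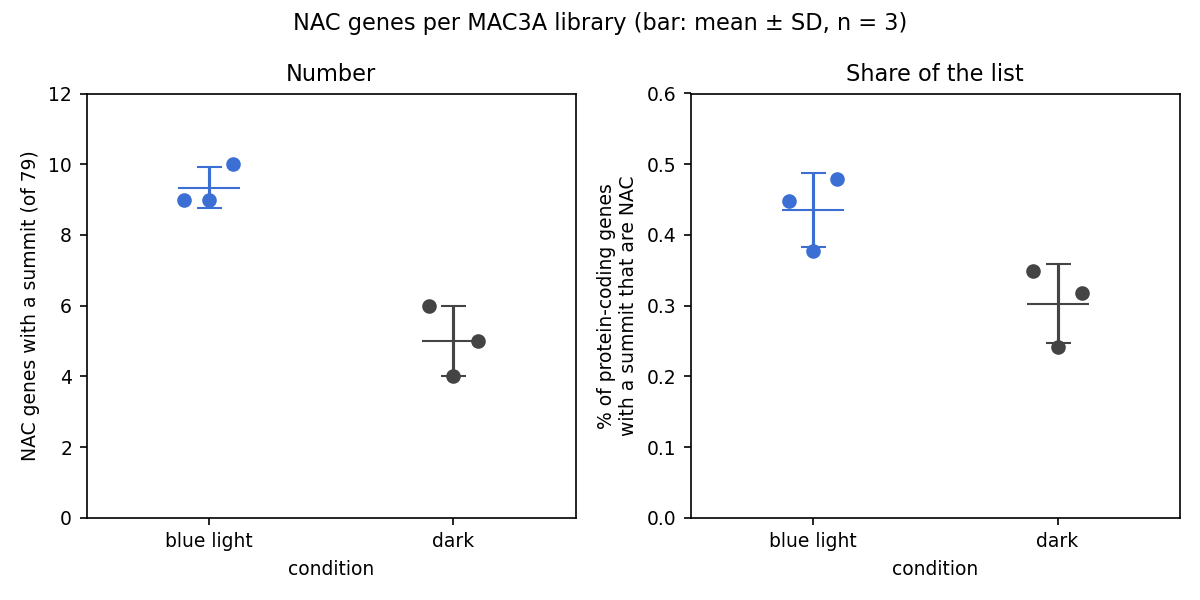
Number of the 79 NAC genes with a MAC3A summit (left) and their share of all protein-coding genes with a summit (right, in percent) in each library, blue light beside dark; points are libraries, horizontal bars means and error bars SD (n = 3 each). The blue libraries sit at 9 to 10 genes, above the dark libraries at 4 to 6.

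The fold and q filters keep stronger peaks by construction, so the members left under them are a description only. NAC080, NAC094 and NAC100 were bound in both conditions under the fold filter, under the q filter and with lists of equal length. NAC062 stayed bound in the dark under these 3 settings, and NAC083 in blue light under the q filter. With lists of equal length NAC083 was also bound in both conditions. There 5.47% of all protein-coding genes were bound in blue light and 5.37% in the dark. The share of all protein-coding genes bound in both conditions under these settings is not given here. Of the 3 members with summits in 3 blue and 0 dark libraries, NAC052 and NAC053 were left with an excess of 1 library under the fold filter and under the q filter, and NAC055 with none. With lists of equal length the excess was 2 libraries for NAC052 and NAC053 and 1 for NAC055. NAC062 changed from an equal number in both conditions to 2 fewer blue than dark libraries under each of these 3 settings. No difference for a single gene can reach a p below 0.10 in this design.

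The rest of the NAC family, 22 genes listed under other symbols, was bound in 4 cases (18.2%) in blue light and 2 (9.09%) in the dark, beside 7.37% and 5.62% of all protein-coding genes. CUC1 (AT3G15170), which sets organ boundaries, had a summit in the body in all 6 libraries, with folds of 3.46, 2.85 and 3.31 in blue light and 4.72, 3.78 and 3.91 in the dark. Its summits lay from 41.2% to 51.1% along the gene, in peaks on chromosome 3 between 5110223 and 5110903. The membrane-tethered NTM1 (AT4G01540) also had body summits in all 6 libraries, with folds of 3.24, 2.95 and 2.80 in blue light and 3.85, 3.48 and 3.37 in the dark. For both genes each blue fold was below each dark fold, as in the medians of the lists. TIP (AT5G24590), which binds a viral coat protein, had body summits in blue light alone, with folds of 2.42, 2.00 and 2.24, and ATAF2 was the fourth bound gene. NTL9 (AT4G35580) had a summit beside the gene in dark replicate 2 alone, with a fold of 3.01. CUC2, CUC3, NAP, RD26 and the vessel regulators VND1 and VND7 had none.

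Of the 6 genes named above as miR164 targets, a list drawn up after the values were seen, NAC080, NAC100 and CUC1 had a body summit in all 6 libraries. NAC092 had one in 1 blue library, and NAC1 and CUC2 had none. Of all protein-coding genes 1.59% had a body summit in all 6 libraries. Since the list followed the values, the count is no result about miR164 targets.

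WRKY and MYB genes, the other large families of plant transcription factors, give the scale of these counts. In blue light 10 of 67 WRKY genes (14.9%) and 8 of 115 MYB genes (6.96%) were bound, and in the dark 9 (13.4%) and 10 (8.70%). Summits in all 6 libraries were found at 5.06% of NAC, 8.96% of WRKY and 5.22% of MYB genes. Of all protein-coding genes 2.70% had them. Summits in 3 blue and 0 dark libraries were found at 3 NAC genes (3.8%), 1 WRKY gene (1.49%) and 0 MYB genes, beside 1.14% of all protein-coding genes. Of these NAC genes 2 stand on 1 set of peaks, and with lists of equal length the NAC count was 0. The families share libraries and the differences between them were not tested.

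**Figure D4:**
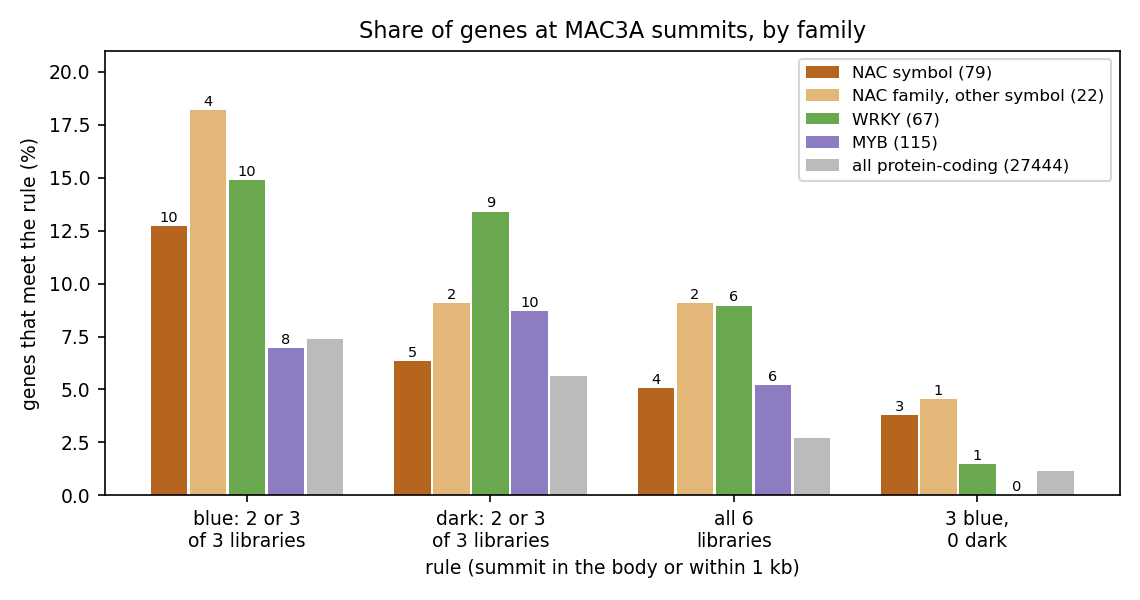
Percent of genes (y axis) that meet each of 4 rules for MAC3A summits (x axis) in the NAC genes, the rest of the NAC family, the WRKY genes, the MYB genes and all protein-coding genes; numbers above bars are gene counts. In blue light 12.7% of NAC genes were bound, beside 7.37% of all protein-coding genes, and in the dark 6.33% beside 5.62%.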

How the data were processed

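MAC3A ChIP-seq peak lists of 6 libraries were used as deposited, with no new alignment or peak calling. The tools named in the submitters' processing notes are Bowtie2, SAMtools, ChIPseeker and MACS2 (version 2.1.1), with the build TAIR10. Parameters, and the control behind each list, are not stated there. Each list came from 1 library, with no pooling. The authors' lists give, per summit, a fold enrichment (ratio), the −log10 of the p value and of the q value, and a whole-number score derived from q, which was not used.

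Groups were taken from the titles. A summit (peak start plus offset) counted for each gene whose body, or 1 kb at either end, held it. Gene positions, names and biotypes came from a RefSeq table for TAIR10.1, which gives no strand. Its coordinates are not printed. Of 9871 summits 79.1% fell in gene bodies, and 66.1% and 69.6% when shifted by 5000 bp either way. Numbers per library were compared by exact permutation tests (Python 3.11.15, scipy 1.17.1), tested on simulated data. Members named are those bound in at least 2 of 3 libraries of a condition; the others with a summit, and genes under other symbols with one, are named and counted. The members, role groups and lists were chosen with earlier results of these data known. Planned promoter motifs and distances from the start of transcription were not analysed here. Alternatives covered −log10 q, fold, list length, window, peak overlap, nearest gene, each library left out and the replicate block.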

Additional observations from a re-analysis of the deposited data

How the results depend on the processing

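Of 10 NAC genes bound in blue light, 4 remained under the q filter (−log10 q of at least 5) and 3 under the fold filter (at least 3), where 3.6% and 3.24% of all protein-coding genes were bound. In the dark 4 of 5 remained under each filter, beside 3.06% and 3.95% of all protein-coding genes. The 5 genes bound in both conditions became 3 under each of these settings. With 3 kb at either end 14 were bound in blue light, where 11.9% of all protein-coding genes were, and 8 in the dark, where 9.52% were. The 3 genes with summits in 3 blue and 0 dark libraries became 0 under the q filter, under the fold filter and with lists of equal length, and the 0 genes of the opposite pattern became 1 with 3 kb. Under the fold filter the blue minus dark difference turned to -0.333 for both the number of NAC genes and the number with body summits per library, and under the q filter that of the share turned to -0.0121 points. The cause was not tested. Leaving out 1 library gave 8 to 10 genes in blue light, 4 to 5 in the dark, and differences of 3.83 to 4.83 in number, 2.67 to 3.67 in body number and 0.101 to 0.161 points in share. With 2 libraries left, bound meant both of them. The difference in body number was 1 with lists of equal length and 0.333 under the q filter, and that in share was 0.0501 points under the fold filter and 0.0865 with 3 kb. Like the differences in number of 0.333 under the q filter and 2 with lists of equal length, these kept their direction. The other alternatives kept the direction and moved none of these counts or differences by over 1.5 times. The windows and the nearest-gene setting do not bear on body summits. Same-numbered libraries showed no pairing in their folds, whose deviations correlated at -0.00761, 0.00502 and 0.0327 over 533 shared regions. These values cannot tell whether same-numbered libraries shared a culture, which the labels do not say. The replicate block left the differences at 4.33, 3 and 0.132 (exact sign-flip permutation test, p = 0.25, the smallest it can give). Peak lists hold no value for a gene without a peak, so weak enrichment below the caller's threshold was not detectable.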
